A study of Caenorhabditis elegans with 2 samples.

Results

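The data describe where AHA-1 was detected on the genome at 10 Jumonji domain genes of the histone demethylase family of Caenorhabditis elegans. They are not all JmjC genes of the worm, and jhdm-1, psr-1 and jmjc-1 are given separately below. The 10 members were chosen by name, with the ranks of their peaks in these same lists known. Their ranks are therefore given as a description and were not tested. A peak was assigned to a member when its summit lay inside the gene or within 3000 bp of one of its annotated transcript starts. All 10 members were found among 19973 protein-coding genes, and 36 of the 30000 peaks of the pooled list were assigned to them. The sequencing was chromatin immunoprecipitation (ChIP-seq) of eGFP-tagged AHA-1 from whole L4 larvae, with males and females pooled. The animals were strain OP124, which is mutant for unc-119 (allele ed3) and carries the tagged aha-1 transgene wgIs124. There was 1 group of 2 biological replicates, so no conditions were compared and no p-value is given. In whole animals, a peak in a few cells and a weak peak in many cells cannot be told apart.

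AHA-1 is the worm counterpart of mammalian ARNT, the bHLH-PAS protein that pairs with the hypoxia factor HIF-1 and with AHR-1. Jumonji demethylases are iron-dependent dioxygenases that remove methyl groups from histone lysines and consume molecular oxygen and alpha-ketoglutarate in doing so. In human cells several genes of the family, among them KDM3A and KDM4B, are known targets of HIF-1. The worm members cover several branches. The product of jmjd-2 is the KDM4 counterpart and acts on methylated H3K9 and H3K36. That of rbr-2 is the KDM5 counterpart and acts on H3K4. That of jmjd-1.2 belongs to the PHF8 and KDM7 branch and acts on H3K9 and H3K27, and jmjd-1.1 is its close relative. UTX-1 and the products of jmjd-3.1, jmjd-3.2 and jmjd-3.3 form the KDM6 branch, which acts on H3K27. The human relatives of the jmjd-4 and jmjd-5 products hydroxylate proteins other than histones.

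Strong AHA-1 peaks stood upstream of 4 of the 10 genes: jmjd-2, jmjd-1.2, rbr-2 and jmjd-4. Their summits were 30th, 59th, 111th and 131st by the authors' signal value in the pooled list. They all belonged to the 530 peaks that the authors kept by the irreproducible discovery rate (IDR), which are the 530 strongest of the pooled list. Under the same assignment rule, 4.25% of all protein-coding genes had an IDR summit. The other 6 members had candidates of rank 2648 or lower, in a list that was deposited as peaks and background together. All 10 members had some summit in the pooled list, as did 82.6% of all protein-coding genes. At 7 of the 10 the best rank was 10000 or better, against 45.9% of all genes. The span searched per member ran from 6001 to 11625 bp, against a median of 6001 bp over all protein-coding genes. Whether span bears on these counts was not tested. The IDR peaks of jmjd-1.2 and jmjd-4 lay nearer to the start of another protein-coding gene. That of rbr-2 lay nearer to the starts of non-coding RNA genes, at 31 and 97 bp against 706 bp. Counting each summit only for the protein-coding gene with the nearest start left jmjd-2 and rbr-2. These were 2 of the 10, against 2.22% of all protein-coding genes.

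**Figure D1:**
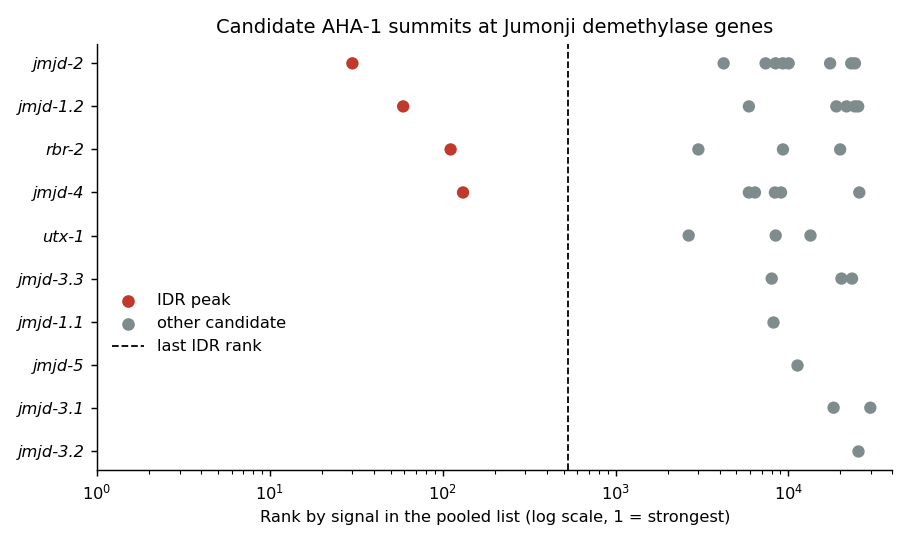
Rank by signal of each of the 36 candidate summits in the pooled list (horizontal axis, log scale, 1 is the strongest), with 1 line per gene. The 4 IDR summits, in red, stand at ranks 30 to 131, and every other summit, in grey, stands at rank 2648 or lower, beyond the dashed line at rank 530.

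The sequences under these 4 peaks are shown because they hold the 5-base core of ARNT dimer sites, ACGTG or GCGTG, written together as RCGTG. Each is the plus strand of ce11 over 201 bases centred on the summit, which is base 101, and capitals mark every RCGTG on either strand. A core on the minus strand reads CACGT or CACGC. They were read from the RefSeq copy of the assembly at II:14244540-14244740 for jmjd-2, IV:4660405-4660605 for jmjd-1.2, IV:10919264-10919464 for rbr-2 and III:10334087-10334287 for jmjd-4.
jmjd-2: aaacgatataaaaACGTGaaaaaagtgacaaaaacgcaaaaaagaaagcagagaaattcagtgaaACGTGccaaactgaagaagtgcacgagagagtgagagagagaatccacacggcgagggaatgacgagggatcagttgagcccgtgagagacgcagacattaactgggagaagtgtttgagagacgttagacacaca
jmjd-1.2: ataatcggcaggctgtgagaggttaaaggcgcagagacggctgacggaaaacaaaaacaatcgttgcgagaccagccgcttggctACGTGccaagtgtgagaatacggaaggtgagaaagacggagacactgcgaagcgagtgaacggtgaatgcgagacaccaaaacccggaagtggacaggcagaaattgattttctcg
rbr-2: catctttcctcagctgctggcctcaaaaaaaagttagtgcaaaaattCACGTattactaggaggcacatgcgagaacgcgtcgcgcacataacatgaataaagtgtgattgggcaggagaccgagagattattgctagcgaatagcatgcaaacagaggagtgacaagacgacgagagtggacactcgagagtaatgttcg
jmjd-4: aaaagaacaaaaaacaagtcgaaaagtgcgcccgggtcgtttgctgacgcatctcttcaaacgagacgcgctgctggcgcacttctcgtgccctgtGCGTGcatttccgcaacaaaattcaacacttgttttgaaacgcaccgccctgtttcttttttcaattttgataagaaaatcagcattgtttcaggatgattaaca

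The jmjd-2 peak was the strongest of the set and reached no other gene. It spanned II:14244593-14244707, a width of 115 bp, while the other 35 peaks were 316 bp wide, the median of the whole list. Its summit at 14244640 lay between genes, 1037 bp upstream of the only annotated start of jmjd-2 (WBGene00012982, II:14234979-14243603, minus strand). No other protein-coding or non-coding gene had a start within 3000 bp. Its signal was 75.3 in the pooled list, against a median of 7.08 over all pooled peaks. In replicate 1 the overlapping peak had rank 26 and signal 37.4, and in replicate 2 rank 44 and signal 38.4. The replicate summits lay 8 and 2 bp from the pooled summit. Signals are in the peak caller's own unit and are compared only within a list, where the medians were 3.91 in replicate 1 and 4.87 in replicate 2.

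The rest of the jmjd-2 locus held low candidates. There were 8 more summits, 7 of them inside the gene, with ranks from 4220 to 24261. The best of these, of rank 4220 and signal 11.3, lay in an intron 1433 bp downstream of the start. It had a replicate 2 counterpart of rank 10716 and none in replicate 1. A candidate only 206 bp upstream of the start had rank 8426, so the strong site was not the one closest to the annotated start. With a start window of 1000 bp in place of 3000 bp, the strong peak was lost to jmjd-2 by 37 bp and its best rank became 4220. The count of members with an IDR summit was then 3, against 2.44% of all genes.

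The jmjd-1.2 peak came next and lay in a divergent promoter. It spanned IV:4660347-4660662 with its summit at 4660505, between genes and 486 bp upstream of jmjd-1.2 (WBGene00017920, IV:4660991-4665212, plus strand). On the other side, 304 bp away, was the start of F29B9.11, transcribed in the opposite direction. Behind F29B9.11 were mrps-21, a gene for a mitochondrial ribosomal protein with its start 988 bp from the summit, and the collagen gene col-111, 2531 bp away. The pooled signal was 59.9. The replicates placed the peak differently: rank 349 and signal 15.5 in replicate 1, rank 29 and signal 46 in replicate 2. This was the widest gap between the replicates among the 4 strong peaks, although both ranks were inside the first 530. The replicate summits were 38 and 14 bp from the pooled one.

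All other candidates of jmjd-1.2 were inside the gene and ranked between 5907 and 25337. The highest, of signal 10.1, lay in the UTR exon at the end of the gene and 275 bp from the start of F29B9.1, the next gene downstream. None of these 5 had a replicate 1 counterpart except that of rank 21704, whose counterpart had rank 19551 and a summit 238 bp away.

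The rbr-2 peak ranked 111 with signal 45.4. It spanned IV:10919206-10919521 with its summit at 10919364, 706 bp upstream of the nearest start of rbr-2 (WBGene00004319, IV:10920070-10926817, plus strand). No protein-coding start was nearer. The summit fell inside the non-coding RNA gene ZK593.14, 97 bp downstream of its start, and 31 bp upstream of the start of the non-coding RNA gene ZK593.13. The protein-coding gene ZK593.3 had its start 2771 bp away. Rank and signal were 240 and 18.2 in replicate 1, and 68 and 32 in replicate 2. The summits were displaced by 49 and 30 bp, the largest shifts among the 4 strong peaks in each replicate. A further rbr-2 summit, of rank 3013 and signal 12.7, lay deep in the gene in an intron, 5828 bp from the start. It ranked 7506 in replicate 1 and 15543 in replicate 2. The last 2 candidates had ranks 9299 and 19929.

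The jmjd-4 peak had its summit in the 259 bp between the starts of jmjd-4 and mev-1. It spanned III:10334029-10334344 with its summit at 10334187, 169 bp upstream of jmjd-4 (WBGene00011563, III:10332526-10334018, minus strand) and 90 bp upstream of mev-1. The mev-1 gene encodes the cytochrome b subunit of succinate dehydrogenase, the respiratory enzyme that turns succinate into fumarate. It is transcribed away from jmjd-4, with ced-9, the worm Bcl-2 relative, directly behind it at 985 bp. The gene T07C4.12 also had its start within reach, at 1527 bp, and the piRNA gene 21ur-15673 at 923 bp. The pooled signal was 43. The peak ranked 245 with signal 18 in replicate 1 and 144 with signal 24.6 in replicate 2, with summits 22 and 2 bp from the pooled one. Which of the neighbouring genes the peak acts on was not measured, and the same holds for jmjd-1.2 and F29B9.11.

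The other 5 candidates of jmjd-4 had ranks from 5904 to 25719 and showed how crowded the locus is. Only the first, in a coding exon 444 bp downstream of the start, was inside jmjd-4. It had no counterpart in either replicate. Those of rank 6402 and 8355 lay in coding exons of ced-9. They were far higher in replicate 1, at ranks 1010 and 1246, and had no counterpart in replicate 2.

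**Figure D2:**
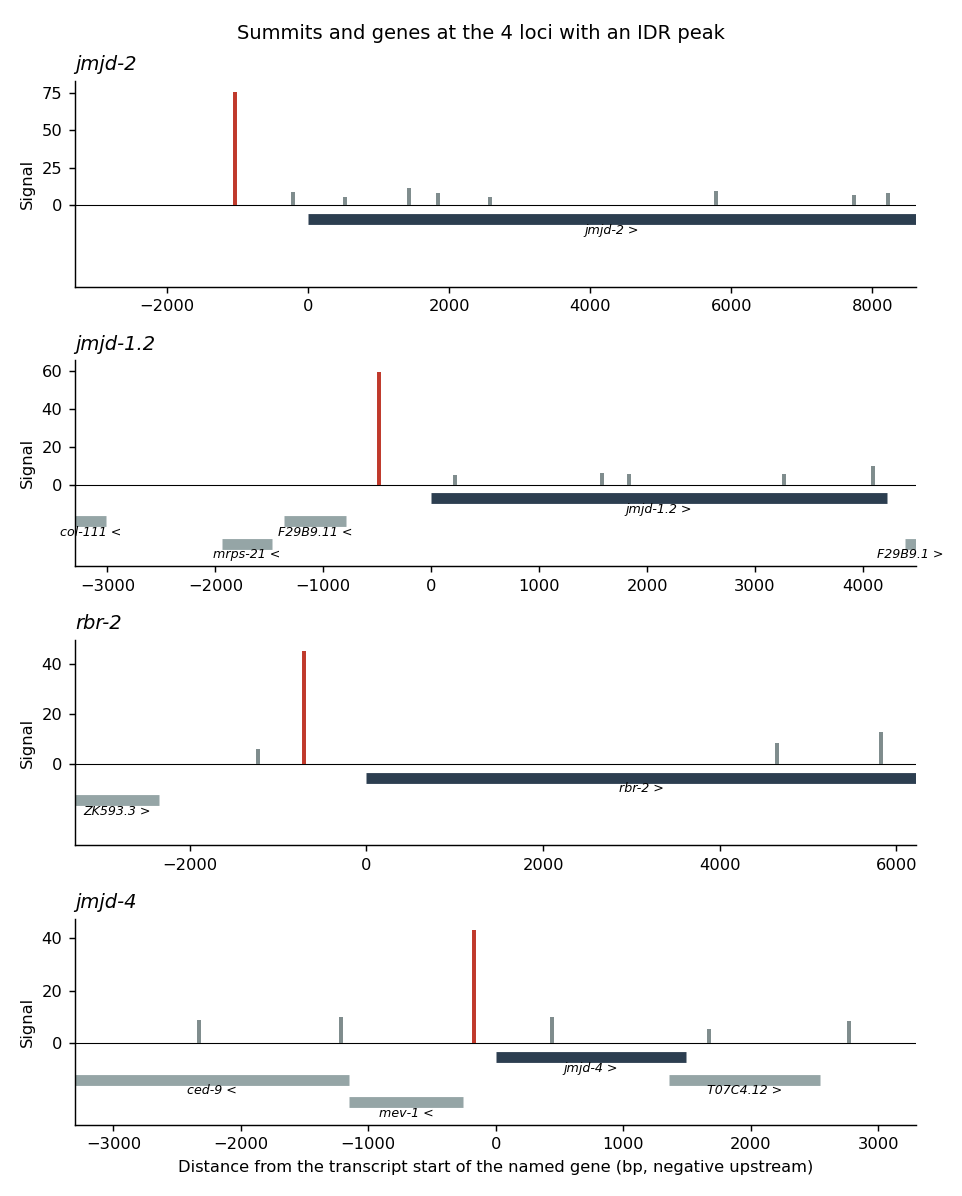
Summits at the 4 genes with an IDR peak: vertical bars give the pooled signal of each assigned summit (red for IDR peaks, grey for others) against distance from the transcript start in bp, negative upstream. Dark boxes are the named genes and light boxes are neighbouring protein-coding genes, with > for the same direction of transcription and < for the opposite; each locus shows 1 tall bar upstream of the start and low bars elsewhere.

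Each replicate's own list placed the same 4 members in its first 530 peaks and no other member. In replicate 1 this depended on the 3000 bp limit at jmjd-3.1. A peak of rank 486 overlapped the pooled jmjd-3.1 candidate 2899 bp upstream, but the summit of that peak lay beyond the limit. Under the assignment rule, 4.06% of all protein-coding genes had a summit among the first 530 in replicate 1, 4.2% in replicate 2 and 2.15% in each of them. These ranks were known when the members were chosen, so nothing is read from them. The order of the 4 differed between the replicates. In replicate 1 it ran jmjd-2, rbr-2, jmjd-4 and jmjd-1.2, and in replicate 2 it ran jmjd-1.2, jmjd-2, rbr-2 and jmjd-4. In replicate 1 rbr-2 and jmjd-4 were close in rank, at 240 and 245. Among all IDR peaks, 44.2% were inside the first 530 of both replicates.

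**Figure D3:**
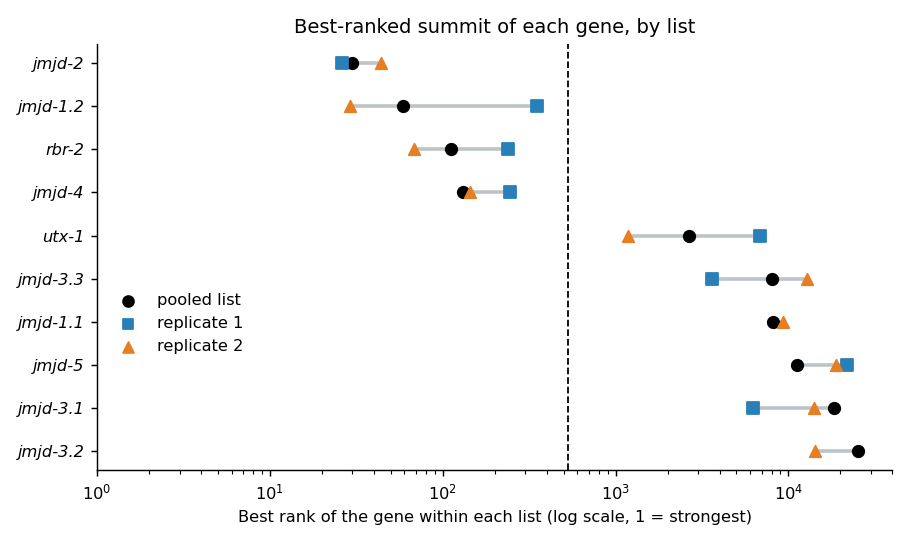
Best rank of each gene in the pooled list (black circles), in replicate 1 (blue squares) and in replicate 2 (orange triangles), on a log scale where 1 is the strongest; a missing square means that replicate 1 had no summit there. All markers of jmjd-2, jmjd-1.2, rbr-2 and jmjd-4 lie between ranks 26 and 349, left of the dashed line at 530, and all markers of the other genes lie at rank 1183 or lower.

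The KDM6 branch had no IDR summit at any of its 4 genes, which all lie on chromosome X. On X, 5.97% of protein-coding genes had an IDR summit under the same rule. The gene utx-1 (WBGene00017046, X:8557146-8563238) came nearest, with a candidate of rank 2648 and signal 13.3 in an intron 5586 bp downstream of the start. It ranked 1183 with signal 12 in replicate 2 and had no counterpart in replicate 1, where the best utx-1 summit was another, 339 bp upstream of the start, of rank 6861. Its pooled candidates upstream had ranks 8441 (inside a coding exon of dhhc-14) and 13422.

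The next protein-coding gene after utx-1, 7808 bp away, is jmjd-3.1 (WBGene00017571, X:8571047-8575451). Its product is needed for the conversion of a hindgut cell into a neuron. Its pooled candidates ranked 18261 and 29791, at 2899 and 1086 bp upstream of the start. A stronger peak of rank 2491 and signal 13.6 lay just beyond the 3000 bp limit, at 3104 bp. Both the 18261st and the 2491st peak were overlapped by the same replicate 1 peak, of rank 486, and neither by a replicate 2 peak. The strong signal there was thus seen in replicate 1 alone, and the gene came to 2491 only with a window of 5000 bp.

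The remaining KDM6 genes were low as well. The best jmjd-3.3 summit (WBGene00007813, X:13436422-13441438) had rank 8006 in a coding exon, with ranks 3599 in replicate 1 and 14265 in replicate 2. The tRNA gene WBGene00014272 had its start 2444 bp from this summit. Another jmjd-3.3 candidate, of rank 20279, lay inside a different tRNA gene. Candidates just outside its start windows had ranks 28190 at 3117 bp upstream and 3425 at 3180 bp downstream. The only jmjd-3.2 summit (WBGene00009089, X:14448210-14453567) had rank 25113 and signal 5.44 in an intron. It had a replicate 2 counterpart of rank 19084, and replicate 1 had no summit at this gene.

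The 2 members left were also low. For jmjd-1.1 (WBGene00005013, II:11806556-11808945) the only candidate had rank 8191 and signal 9, at 1744 bp upstream of the start, with a replicate 2 rank of 9247 and no replicate 1 counterpart. It also reached F43G6.17, with its start 1910 bp away. The non-coding RNA genes F43G6.12 and F43G6.13 had their starts 1558 and 1783 bp from the summit, the first nearer than that of jmjd-1.1. For jmjd-5 (WBGene00007387, V:11127497-11130095) the only candidate had rank 11207 and signal 8.01 and lay in an intron of C06H2.2, 1988 bp upstream of jmjd-5 and 287 bp from the start of C06H2.2. Its replicate ranks were 21823 and 28679. It also reached atp-5 and lmtr-3. A jmjd-5 candidate outside the window, at 3339 bp upstream, had rank 3266. The limit of the IDR list itself lay far from all members: the 530th and the 531st pooled peaks both had a signal of 25.2, against 43 at jmjd-4 and 13.3 at utx-1.

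**Figure D4:**
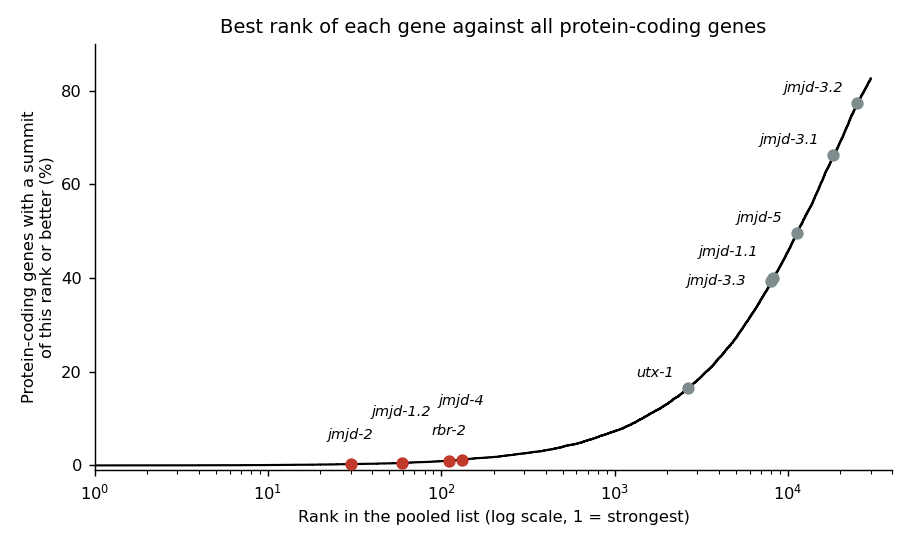
Share of all protein-coding genes (vertical axis, %) that have a summit of a given rank or better in the pooled list (horizontal axis, log scale); points mark the 10 members at their best rank, red for those with an IDR peak. Of all genes, 0.28% reach the rank of jmjd-2, 0.556% that of jmjd-1.2, 1.01% that of rbr-2 and 1.25% that of jmjd-4, whereas 77.4% reach that of jmjd-3.2.

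Of the 36 summits, 18 lay outside the member's transcribed region. These were the 4 IDR summits, which were 169 to 1037 bp upstream of the start, and 14 weaker ones. Of the IDR summits, 3 lay between genes and that of rbr-2 lay in the ncRNA gene ZK593.14. The other 32 summits had signals from 4.88 to 13.3. Inside members, 11 summits lay in introns, 6 in coding exons and 1 in a UTR exon, and none of these 18 was an IDR peak. Over the genome, 0.821% of pooled summits inside protein-coding genes and 3.14% of those outside them were IDR peaks, and nothing particular to the members is read from their position. More than 1 protein-coding gene was reached by 20 of the 36 summits and by 3 of the 4 IDR summits, against 41.1% of all pooled summits and 52.5% of IDR summits. Peaks of both replicates overlapped 13 of the 36, against 26.5% of all pooled peaks. Only replicate 2 gave a counterpart to 13, only replicate 1 to 6, and neither to 4. The matching shares of all pooled peaks were not counted, so nothing particular to the members is read from this split. The pooled list was made from these replicates, so a counterpart is not independent support. The lists hold no read counts, so the depth behind these differences is unknown.

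The base sequence was not used by the assignment rule. Within 50 bp of the summit, RCGTG occurred at 3 of the 4 IDR summits of members, against 49.4% of all IDR summits and 16.4% of all pooled summits. In the sequences above, the jmjd-4 core is of the GCGTG form and its centre lay 2 bp from the summit. The jmjd-1.2 core is of the ACGTG form at 13 bp. The jmjd-2 sequence has an ACGTG at 33 bp and another at 85 bp, both on the plus strand. The rbr-2 sequence has its only ACGTG on the minus strand with its centre at 51 bp, just outside the window. With a window of 100 bp all 4 had a core, against 64% of all IDR summits. Of the 32 weaker summits, 5 had a core within 50 bp. At the strongest summit of utx-1, jmjd-3.3 and jmjd-1.1 the nearest cores lay 88, 104 and 62 bp away, and none was found within 150 bp of those of jmjd-5, jmjd-3.1 and jmjd-3.2.

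**Figure D5:**
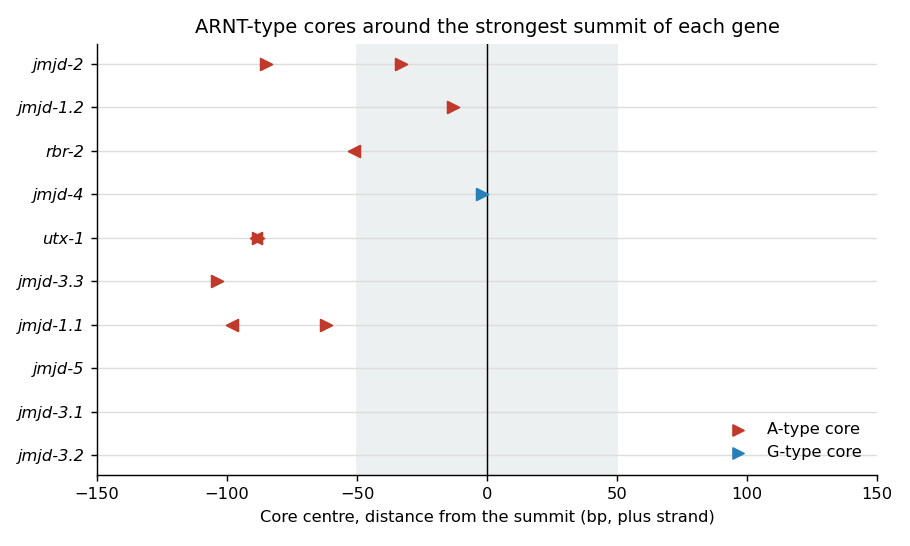
Centres of RCGTG cores within 150 bp of the strongest summit of each gene, as distance from the summit in bp along the plus strand; red is the form that starts with A, blue the form that starts with G, and the arrowhead gives the strand. The shaded band is 50 bp to each side, and cores fall in it at jmjd-2, jmjd-1.2 and jmjd-4.

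The cores of jmjd-2 and jmjd-1.2 continued alike. The longest string shared by their 101-base windows was ACGTGCCAA, on the same strand, beginning with the core. It was looked for after the sequences had been seen, and no test was made. It occurred in 9 of the 530 IDR windows (1.7%) and in 33 of the 30000 pooled windows (0.11%), on either strand. The longest strings shared by the other pairs of these 4 windows were 6 to 8 bases long and held no core. Longer forms of ARNT sites were also searched. The E-box CACGTG was in none of the 4 windows and in 7.92% of IDR windows, and the xenobiotic element TNGCGTG was in none and in 6.42%. With shares this low, nothing is read from their absence in 4 windows. Over all 36 member summits, CACGTG was at 1, against 2.18% of pooled summits, and TNGCGTG at 0, against 2.04%. The repeat GAGAGAG, searched as an unrelated sequence, was in the jmjd-2 window, in 11.5% of IDR windows and in 2.97% of pooled windows. A higher share in IDR windows than in pooled windows was thus not limited to ARNT-type sequences. CACGTG holds ACGTG and TNGCGTG holds GCGTG, so these counts overlap. The guanine and cytosine content of the 4 windows was 51.5% at jmjd-2 and jmjd-4, 52.5% at jmjd-1.2 and 47.5% at rbr-2. The median was 50.5% over IDR windows and 36.6% over pooled windows.

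Among 32 other genes of histone methylation, 4 had an IDR summit under the same rule, against 4.25% of all protein-coding genes. These were lsd-1 (rank 127), set-16 (98), cec-4 (207) and lin-59 (286). LSD-1 removes methyl groups by a different chemistry, as an amine oxidase, and its summit, 1498 bp upstream, was shared with nfya-1. SET-16 is the MLL-type H3K4 methyltransferase whose human counterparts work in a complex with UTX, and its summit lay 152 bp upstream, shared with T12D8.10, acbp-5 and drr-2. CEC-4 anchors chromatin with methylated H3K9 at the nuclear envelope, and its summit, 1622 bp upstream, was shared with clec-180. LIN-59 is an ASH1-type methyltransferase, and its summit, 727 bp upstream, reached no other protein-coding gene. The ranks in replicates 1 and 2 were 179 and 155 at lsd-1, 71 and 110 at set-16, 460 and 159 at cec-4, and 354 and 664 at lin-59. The last was therefore outside the first 530 of replicate 2.

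None of the 3 other JmjC genes had an IDR summit: jmjc-1 was at rank 854, psr-1 at 986 and jhdm-1 at 1845. The strongest gene of the H3K27 methylation list was mes-6, with rank 2786. For scale, 3 of 5 genes of the HIF-1 pathway had an IDR summit. Of these, egl-9 and rhy-1, which restrain HIF-1, had the 1st and 7th peaks of the pooled list, and hif-1 had the 62nd, close to that of jmjd-1.2. The other 2 had none: aha-1 itself was at rank 735 and vhl-1, which marks HIF-1 for degradation, at rank 6172. The replicates differed at aha-1, with rank 163 in replicate 1 and 3334 in replicate 2. At vhl-1 the ranks were 23614 and 6893.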

How the data were processed

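Peaks came from eGFP-AHA-1 ChIP-seq of 2 biological replicates of 1 group. Per the text deposited with the samples, the authors called peaks on each replicate with a control and on both replicates pooled. Aligner, peak caller and IDR threshold were not given in the sources used here; read depth is unknown. The signal per peak is the value deposited by the authors, of unstated scaling, and served to rank peaks within each list. The authors' −log10 q-values, also deposited, were equal at the top 928 pooled peaks and gave only an alternative ranking.

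The ce11 lists were placed on WBcel235, the same assembly, within whose chromosomes all peaks ended, with genes of Ensembl release 115. The ce10 lists were not used. A summit counted for every protein-coding gene that it lay in or had a transcript start within 3000 bp of it. Replicate peaks were matched by an overlap of at least 1 bp, taking the best rank. Motifs were searched on both strands. Assignment and motif search were tested on simulated data (Python 3.11.15, pandas 2.3.3).

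The members, gene lists and motifs were chosen with earlier results of these data known, so no test was run. The naming rule took each member's strongest summit, its summits ranked 5000 or better and the genes sharing them, and, from the other lists, genes with an IDR summit and the strongest gene. Lower-ranked summits, those beyond 3000 bp, the shared string, psr-1, jhdm-1, aha-1 and vhl-1 were named after their values were seen. Alternatives were other windows, the nearest start only, each replicate alone, other list lengths, ranking by q-value, other overlap rules and other motif windows.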

Additional observations from a re-analysis of the deposited data

How the results depend on the processing

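The 4 members with an IDR summit were the same genes from either replicate alone with the window of 3000 bp. They were also the same from the pooled list with a window of 5000 bp. The same held with the IDR list shortened to its stronger 265 peaks or extended to 1060. The count was 3 with a window of 1000 bp (without jmjd-2). It was 2 with the nearest protein-coding start only (without jmjd-1.2 and jmjd-4). Using each replicate alone, the members had 25 to 32 summits and a median best rank of 1974 to 5215. These medians cover 8 and 10 members, so they are not over the same genes. The median best rank was 5327 in the pooled list, 2648 with 1000 bp (7 members), 2569.5 with 5000 bp and 8006 with the nearest start only (9 members). The 36 summits became 24 with 1000 bp, 54 with 5000 bp, 28 with the start window only, 18 in gene bodies only and 23 with the nearest start only. Counterparts in both replicates fell from 13 to 8 when summits had to lie within 100 bp, against 12.6% of all pooled peaks. Summits with RCGTG numbered 8 within 50 bp, 5 within 25 bp and 14 within 100 bp, against 16.4%, 8.85% and 28.7% of all pooled summits. By q-value the 4 strong peaks were tied with the other peaks at the maximum, at a mean rank of 464.5. Of 54 best ranks of single members under these settings, 21 were equal to those reported, 13 were nearer the top and 20 further down. Some of them were ranks in the list of a single replicate. No paired analysis was possible because there was only 1 group. With depth unknown, a member without a strong peak cannot be called unbound.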
